A study of Mus musculus with 11 samples.

Results

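Mouse cavernous endothelial cells kept for 5 days in high glucose with added Hsp70 were compared with cells of the same kind kept in normal glucose. The comparison used 7 of the series' 11 RNA sequencing libraries, 4 of the Hsp70 group and 3 of normal glucose, and all 18248 genes that reached a normalized count of 1 in 3 or more of the 11. Libraries were paired by the set number in the name of the deposited file. Sets 3, 4 and 5 each held 1 library of both groups, and the Hsp70 library of set 2, which has no normal glucose partner, served as an unpaired check. By title number, sets 3 to 5 are normal glucose replicates 1 to 3, and sets 2 to 5 are Hsp70 replicates 1 to 4. The labels name the tissue of origin as mouse corpus cavernosum, the erectile tissue of the penis, and give a medium with serum and heparin for all groups. The sources used here do not give the glucose concentrations, the dose and form of Hsp70, the age and strain of the mice, or whether the replicates came from separate animals or cultures. Every p-value therefore measures the spread between these libraries only. The group given Hsp70 differs from normal glucose in 2 ways at once, so an effect of glucose and an effect of Hsp70 cannot be told apart by this comparison alone.

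Txnip binds and inhibits thioredoxin, restrains glucose uptake, and is switched on by the glucose-sensing transcription factors ChREBP and MondoA. Hspa1a and Hspa1b encode the inducible Hsp70 chaperone, which heat shock factor 1 switches on when proteins misfold. Hmgcs1 makes a precursor of cholesterol and is driven by the sterol-sensing factor SREBP2.

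Each library held 24.8 to 27.8 M normalized counts. Libraries of set 3 differed from all others in their cell markers. The endothelial adhesion gene Pecam1 had log2 levels of 9.07 in normal glucose and 8.86 with Hsp70 in set 3, against 3.56 and 3.61 in normal glucose and 3.27, 3.18 and 2.68 with Hsp70 in the other sets. The fibroblast matrix gene Dcn stood between 15.26 and 17.57 in all 7 libraries, so a fibroblast marker was abundant in cells labelled endothelial. Summed normalized counts of the 22 endothelial markers were 7700 to 9120 in normal glucose and 8375 to 12872 with Hsp70, the highest in set 2. Such a sum follows its most abundant members. Over the same 22 markers, the median log2 difference of the set 2 Hsp70 library from the normal glucose mean was -0.72. The 15 fibroblast markers summed to 205485 to 361344 in normal glucose and to 185326 to 411398 with Hsp70. The 17 leukocyte markers summed to 5744 and 5569 in set 3, and to 662 to 779 and 631 to 754 in sets 4 and 5, with 1025 in the Hsp70 library of set 2. The T cell marker Cd3e was under a normalized count of 1 in every library. In bulk RNA, fewer cells of a type and less RNA per cell cannot be told apart. Among the libraries of sets 3 to 5, the Hsp70 library of set 4 and the normal glucose library of set 3 departed most from the other 2 of their set (SD of the log2 departure 0.569 and 0.430, against 0.199 to 0.328 in the others). Results are given in each set, and set 5 holds neither of them.

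No gene passed limma's test at an adjusted p of 0.05 (0 of 18248, 0% of the genes tested). At an unadjusted p under 0.05, 280 genes were higher with Hsp70 (1.53%) and 361 lower (1.98%). In both directions together that made 641 genes (3.51%), and the median standard error was 0.230 on the log2 scale. Higher in all 3 sets were 1391 genes (7.62%), and lower in all 3 were 1811 (9.92%). All 4 Hsp70 libraries lay above all 3 normal glucose libraries for 88 genes (0.482%) and below them for 226 (1.24%). One setting changed the outcome: with libraries weighted by their own scatter limma called 534 genes, 212 higher and 322 lower. Those weights ran from 0.106 for the Hsp70 library of set 4 to 6.28 for the Hsp70 library of set 5, and their estimation ended with a convergence warning. Below, levels are log2(normalized count + 1), differences are Hsp70 minus normal glucose on that scale, and standard errors are limma's. No difference named below passed over all genes tested, where each gave an adjusted p of 1.00 by limma.

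Txnip was higher with Hsp70 in high glucose than in normal glucose in every set. Its log2 levels were 10.02, 11.23 and 10.89 in the normal glucose libraries of sets 3, 4 and 5, and 11.90, 11.72, 11.61 and 11.54 in the Hsp70 libraries of sets 2, 3, 4 and 5. The groups did not overlap, and the Hsp70 libraries lay closer together than the normal glucose ones. The within-set log2 differences were 1.70, 0.37 and 0.64, and their mean was 0.90 (SE 0.241, 95% interval 0.34 to 1.46 by limma), a 1.87-fold higher level. Two-sided exact permutation of the 4 Hsp70 and 3 normal glucose libraries gave p = 0.0286, the smallest that 35 splits allow. That test takes no account of the sets; it was run for each of the 59 genes named by rule or shown here, and Hspa1a, Vegfa and Gm15441 also gave the smallest p. The size rests in part on set 3, whose normal glucose library had the lowest Txnip level: the mean difference was 0.51 without set 3 and 0.56 without that library. Without the Hsp70 library of set 4 it was 1.05. High glucose alone, set against the same normal glucose libraries, gave 1.78, 0.71 and 1.04.

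Txnip lies on chromosome 3 (mm10, 96557957 to 96561883, plus strand). Its promoter, from RefSeq (GRCm38.p6), is shown because it holds a carbohydrate response element, the paired E-box form that ChREBP and MondoA bind. Bases in capitals match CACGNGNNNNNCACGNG, searched on both strands of the 250 bases before and 50 after the start of 32851 promoters, of which 16 (0.0487%) held it. The match begins at base -85 from the start site, and the window is chr3:96557707-96558006.
Txnip: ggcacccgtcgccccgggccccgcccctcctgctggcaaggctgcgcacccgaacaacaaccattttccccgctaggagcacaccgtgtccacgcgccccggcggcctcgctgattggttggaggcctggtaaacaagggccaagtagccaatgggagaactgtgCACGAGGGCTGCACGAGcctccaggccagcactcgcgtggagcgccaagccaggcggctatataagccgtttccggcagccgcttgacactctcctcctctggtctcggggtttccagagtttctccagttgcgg
Txnip also lies within the antisense gene Gm15441, whose differences were 1.91, 0.52 and 0.53 (mean 0.99, SE 0.277). The sources used here do not say which strand was counted, so reads of the pair may be shared.

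**Figure D1:**
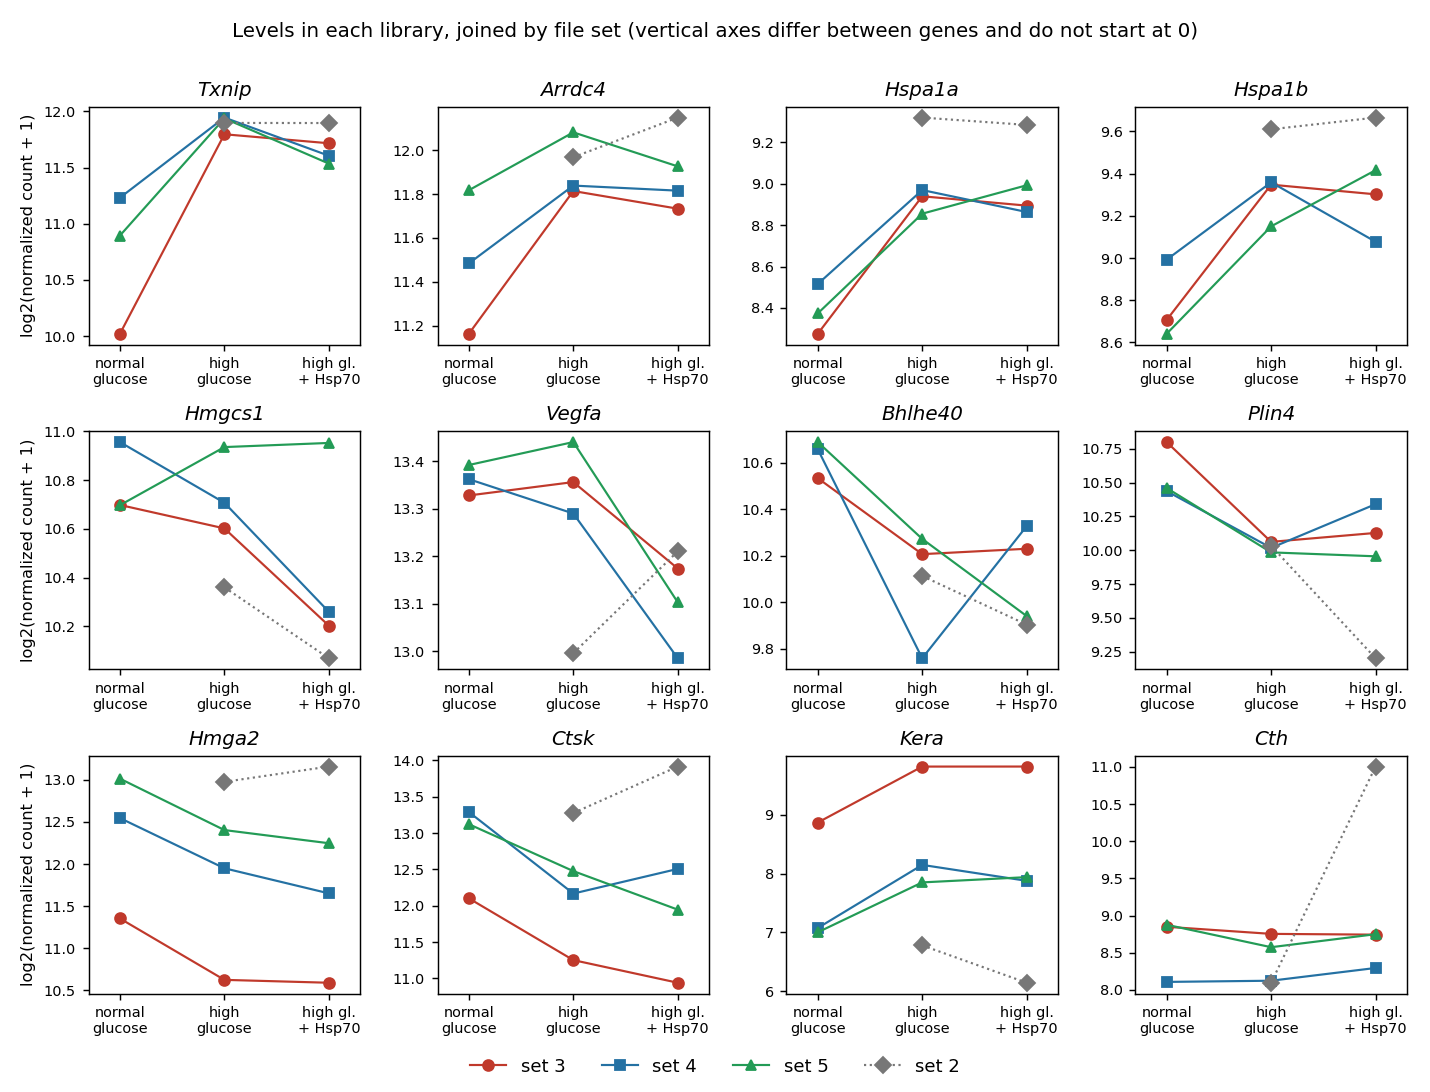
Levels of 12 genes as log2(normalized count + 1), vertical, in the 11 libraries, with the 3 groups on the horizontal axis; lines join libraries of 1 set and the dotted line is set 2, which has no normal glucose library. The Hsp70 libraries lie above all normal glucose libraries for Txnip, Hspa1a and Hspa1b and below them for Vegfa, Bhlhe40 and Plin4, whereas the sets lie apart for Hmga2, Ctsk and Kera.

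Of the 15 tested genes of the Txnip family and ChREBP pathway, 10 had a mean difference above 0 and 5 below, beside 49.7% and 50.3% of all genes. In all 3 sets 5 were higher (33.3%, against 7.62% of all genes) and 2 lower (13.3%, against 9.92%). Txnip and Arrdc4, chosen with earlier results of these data known, are among the 5, so the share is a description. The list's median difference was 0.06, with 0.07, 0.28 and -0.00261 in sets 3, 4 and 5, and -0.0184 without set 3. Arrdc4, the arrestin relative of Txnip that shares its regulation by glucose, stood at 11.16, 11.48 and 11.82 in normal glucose and at 12.15, 11.73, 11.82 and 11.93 with Hsp70 in sets 2 to 5. The levels met in the middle, since normal glucose of set 5 lay above the Hsp70 library of set 3. Its differences within sets were 0.57, 0.33 and 0.11 (mean 0.34, SE 0.130, and 0.22 without set 3 or its normal glucose library). Mxi1, a repressor of the Myc network, had differences of 0.31, 0.54 and 0.31 (mean 0.39, SE 0.112). The glucose transporter Slc2a1 was lower, by -0.35, -0.38 and -0.70 (mean -0.47, SE 0.152), although its set 2 Hsp70 library, at 12.80, lay within the normal glucose range of 12.29 to 12.85. Mlxipl, which encodes ChREBP itself, was named after its values were seen. It stood at 6.80, 6.86 and 6.95 in normal glucose and at 6.75, 5.27, 6.22 and 6.28 with Hsp70, with no overlap. Its within-set differences were -1.53, -0.65 and -0.67 (mean -0.95, SE 0.251), a sign opposite to that of Txnip and Arrdc4. In high glucose alone Mlxipl gave -0.99, -1.02 and -0.50 against the same normal glucose libraries.

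Hspa1a and Hspa1b, the inducible Hsp70 genes, were both higher with Hsp70 in each set. Hspa1a stood at 8.28, 8.52 and 8.37 in normal glucose and at 9.28, 8.89, 8.86 and 8.99 with Hsp70 in sets 2 to 5. The lowest Hsp70 library lay above the highest normal glucose library. The within-set differences were 0.62, 0.35 and 0.62, with a mean of 0.53 (SE 0.125, 95% interval 0.24 to 0.82 by limma), a 1.44-fold higher level. The two-sided exact permutation test gave p = 0.0286. The difference lay between 0.47 and 0.62 when any 1 library or set was left out. For Hspa1b the levels were 8.71, 8.99 and 8.64 in normal glucose and 9.67, 9.30, 9.08 and 9.42 with Hsp70, again without overlap. Its differences were 0.59, 0.08 and 0.77 (mean 0.48, SE 0.156), the smallest in set 4. High glucose alone gave 0.66, 0.45 and 0.48 for Hspa1a and 0.64, 0.37 and 0.51 for Hspa1b against the same normal glucose libraries.

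The pair lies on the minus strand of chromosome 17 (mm10, Hspa1a at 34969190 to 34972156 and Hspa1b at 34956436 to 34959238). Both RefSeq promoters (GRCm38.p6) are shown to let the copies be compared: 296 of their 300 bases (98.7%) are identical. These windows hold 250 bases before and 50 after the start, so most of each transcript was not compared. The sources used here do not say how reads that fit both genes were counted, so the values of each are uncertain. Capitals mark a heat shock element, the letters GAANNTTC searched on both strands, found in 2582 of 32851 promoters (7.86%) and here at base -104. The windows are chr17:34972107-34972406 for Hspa1a and chr17:34959189-34959488 for Hspa1b.
Hspa1a: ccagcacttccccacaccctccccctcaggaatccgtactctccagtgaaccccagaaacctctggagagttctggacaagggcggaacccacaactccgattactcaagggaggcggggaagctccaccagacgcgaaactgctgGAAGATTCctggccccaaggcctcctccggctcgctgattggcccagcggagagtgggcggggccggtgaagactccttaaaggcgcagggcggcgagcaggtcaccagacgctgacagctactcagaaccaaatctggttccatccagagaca
Hspa1b: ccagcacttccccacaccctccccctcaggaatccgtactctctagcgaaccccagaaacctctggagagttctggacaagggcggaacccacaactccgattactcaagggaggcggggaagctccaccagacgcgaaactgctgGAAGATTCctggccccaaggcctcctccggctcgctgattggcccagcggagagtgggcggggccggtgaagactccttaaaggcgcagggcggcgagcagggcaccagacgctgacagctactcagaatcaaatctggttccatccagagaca
Among the 20 genes picked by rule below, the RefSeq table held promoters of 9 higher and 8 lower genes. The heat shock element was in that of Hspa1a and of the lower genes Clic5 and Arhgap6, and the carbohydrate response element in that of Txnip.

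Of 26 tested chaperones and heat shock genes, 16 lay above 0 and 10 below, and 4 were higher in all 3 sets (15.4%, against 7.62% of all genes) while none was lower in all 3. Those 4 were Hspa1a, Hspa1b, the small chaperone gene Cryab (0.21) and the co-chaperone gene Bag3 (0.13), the last 2 named after their values were seen. Hspa1a and Hspa1b were chosen for this comparison with earlier results of these data known, and their reads may be shared. The share counts them as 2 members, so it is a description. The median difference of the list was 0.06, against -0.00162 for all genes. Without set 4 that median was -0.00967, and without the Hsp70 library of set 4 alone 0.00590. The other 24 members had differences between -0.20 and 0.60 and unadjusted p-values by limma of at least 0.0852.

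Hmgcs1 did not hold 1 direction. Its levels were 10.70, 10.96 and 10.70 in normal glucose and 10.07, 10.20, 10.26 and 10.95 with Hsp70 in sets 2 to 5. Hsp70 libraries of sets 2, 3 and 4 lay below all normal glucose libraries, and that of set 5 lay among them. The within-set differences were -0.50, -0.70 and 0.26, with a mean of -0.31 (SE 0.181, 95% interval -0.73 to 0.11 by limma). The two-sided exact permutation test gave p = 0.114. High glucose alone gave -0.10, -0.25 and 0.24 against the same normal glucose libraries. Hmgcs1 lies on chromosome 13 (mm10, 119690379 to 119708260, plus strand).

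The sterol genes around Hmgcs1 were as divided. Of 28 tested genes of sterol synthesis and uptake, 11 lay above 0 and 17 below, 1 was higher in all 3 sets (Tm7sf2, 0.16) and 2 were lower, Insig1 among them. The shares were 3.57% higher and 7.14% lower, against 7.62% and 9.92% of all genes. The list's median was -0.26 in set 3, 0.06 in set 4 and 0.16 in set 5. Insig1, which holds the SREBP complex back in the endoplasmic reticulum, gave -0.26, -0.61 and -0.34 (mean -0.40, SE 0.144). Tm7sf2 was named after its values were seen.

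Genes of lipid storage were mixed. Plin4, a coat protein of lipid droplets, stood at 10.80, 10.44 and 10.46 in normal glucose and at 9.20, 10.13, 10.34 and 9.96 with Hsp70. All 4 Hsp70 libraries were below the normal glucose libraries. Its within-set differences were -0.67, -0.10 and -0.51 (mean -0.42, SE 0.139). Acss2, which turns acetate into acetyl-CoA, gave 0.77, 0.00 and 0.82 (mean 0.53, SE 0.191). Of the 25 tested genes of fatty acid synthesis and lipid droplets, 6 were higher and 3 lower in all 3 sets. The shares were 24% higher and 12% lower, against 7.62% and 9.92% of all genes. The 3 lower ones were the perilipins Plin2 (-0.36), Plin4 and Plin5 (-0.99), and Plin2 and Plin5 were named after their values were seen. Neither had an unadjusted p under 0.05 by limma.

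The naming rule took the 10 higher and 10 lower genes with the smallest unadjusted p among well-measured genes that held 1 sign in all 3 sets (550 higher and 691 lower genes were eligible). Their sign in the sets and the order of p-values chose them, so those values are a description. The last higher gene was Txnip (0.90) and the next, left out, was Ppp1r3c (0.47). The last lower gene was Arhgap6 (-0.47) and the next was Asb5 (-0.49). Within a set the differences ran from 0.33 to 1.70 in size for the higher genes and from 0.32 to 1.23 for the lower genes. In high glucose alone, all 10 higher and all 10 lower genes had the same sign in all 3 sets. Both comparisons share the normal glucose libraries. The high glucose libraries also entered the spread behind the p-values that ranked these genes. This agreement is therefore partly built into the choice, and its share over all genes was not counted. The set 2 Hsp70 library, which the rule's p-values did not use, lay on the same side of the normal glucose mean for 4 of the 10 higher and 1 of the 10 lower genes. It lay beyond all normal glucose libraries in the other direction for 4 and 7 of them. How often the set 2 library lay in these ways over all genes was not counted. Set 2 has no normal glucose library, so the level of that set and an effect of treatment cannot be told apart there.

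**Figure D2:**
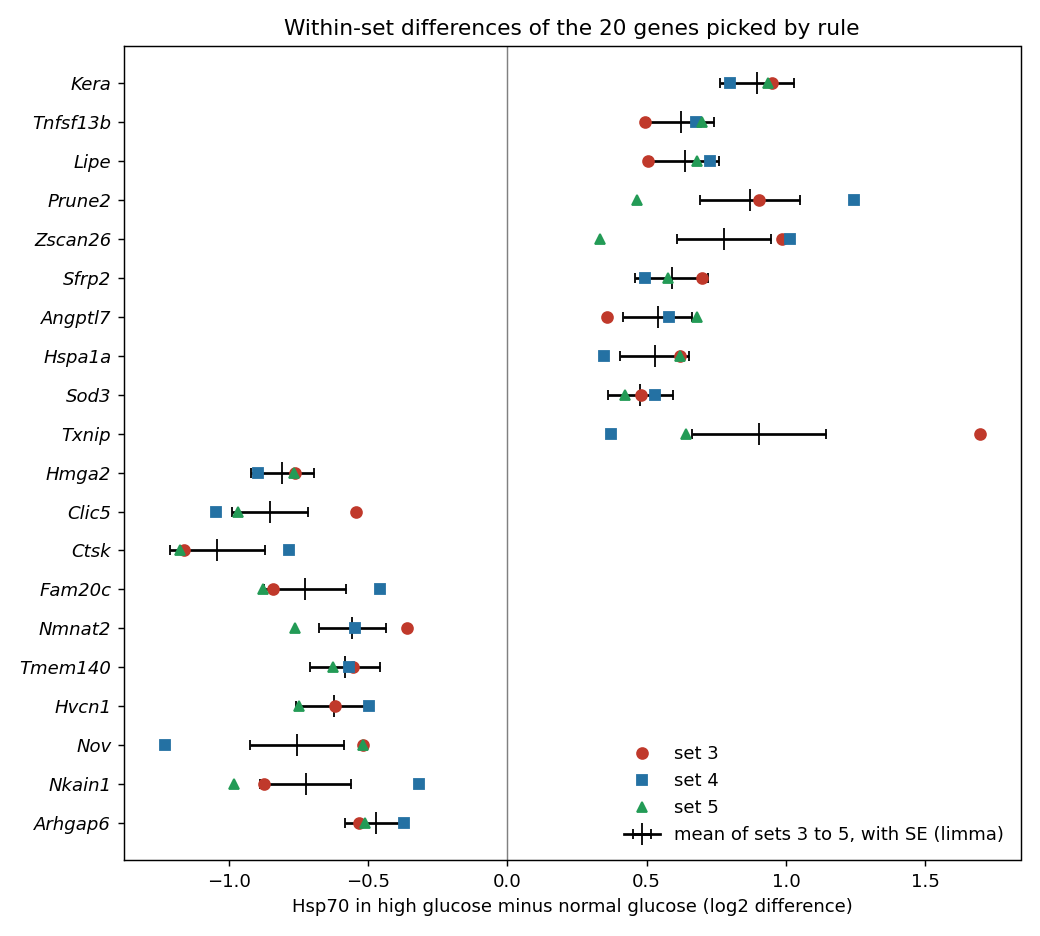
Log2 difference, Hsp70 in high glucose minus normal glucose (horizontal axis), for the 20 genes picked by rule (vertical axis); symbols are sets 3, 4 and 5, and the bar is their mean with limma's standard error. Kera and Hmga2 differ by nearly the same amount in each set, and Txnip spreads from 0.37 to 1.70.

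Among the higher genes, Kera, a proteoglycan that spaces collagen fibrils, stood at 8.86, 7.08 and 7.00 in normal glucose and at 6.15, 9.82, 7.88 and 7.94 with Hsp70. Each Hsp70 library of sets 3 to 5 exceeded its partner by a similar amount, but the groups overlapped because set 3 was high and set 2 low. Within sets it differed by 0.95, 0.80 and 0.94 (mean 0.90, SE 0.132). For Kera, high glucose alone gave 0.95, 1.07 and 0.85 against the same normal glucose libraries. Sfrp2, a secreted modulator of Wnt signals, gave 0.70, 0.50 and 0.58 (mean 0.59, SE 0.132). Angptl7, a secreted angiopoietin-like protein, gave 0.36, 0.58 and 0.68. Sod3, the superoxide dismutase of the extracellular space, had levels of 15.53, 13.44 and 13.40 in normal glucose and 13.73, 16.01, 13.97 and 13.82 with Hsp70. In each set the Hsp70 library was the higher, by 0.48, 0.53 and 0.42 (mean 0.48, SE 0.116). Tnfsf13b, the B cell survival cytokine BAFF, gave 0.50, 0.68 and 0.70. Lipe, the hormone-sensitive lipase, gave 0.51, 0.73 and 0.68, though it overlaps the gene 4732471J01Rik on the opposite strand. Prune2 gave 0.90, 1.24 and 0.46, and the zinc finger gene Zscan26 gave 0.99, 1.02 and 0.33, so these 2 were least different in set 5.

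Among the lower genes, Hmga2, a chromatin protein of growing cells, stood at 11.35, 12.55 and 13.01 in normal glucose and at 13.16, 10.59, 11.65 and 12.25 with Hsp70. Each Hsp70 library of sets 3 to 5 lay below its partner, whereas the Hsp70 library of set 2 was the highest of the 7. It differed within sets by -0.76, -0.89 and -0.77 (mean -0.81, SE 0.114). For Hmga2, high glucose alone gave -0.73, -0.60 and -0.61 against the same normal glucose libraries. Ctsk, the collagen-cutting protease cathepsin K, stood at 12.10, 13.29 and 13.12 in normal glucose and at 13.92, 10.94, 12.51 and 11.95 with Hsp70. The same arrangement held for it, with set 2 highest and differences of -1.16, -0.78 and -1.18 (mean -1.04, SE 0.172), a level 0.486 times that in normal glucose. Fam20c, the kinase of secreted proteins, gave -0.84, -0.46 and -0.88, and Nov, a matricellular protein of the CCN family, gave -0.52, -1.23 and -0.52. Of membrane and signalling genes, the chloride channel relative Clic5 gave -0.54, -1.05 and -0.97, the proton channel Hvcn1 -0.62, -0.50 and -0.75, and Nkain1 -0.87, -0.32 and -0.98. The GTPase-activating protein Arhgap6 gave -0.53, -0.37 and -0.51, the NAD-making enzyme Nmnat2 -0.36, -0.55 and -0.76, and Tmem140 -0.55, -0.57 and -0.63. Without the set block, over all 11 libraries, many of these differences were smaller. Leaving out the block does not change the means in the same 9 libraries. The change comes from the unpaired Hsp70 library of set 2, which enters the mean of its group. With it the means were 0.02 for Sfrp2, 0.16 for Tnfsf13b, 0.26 for Sod3, 0.30 for Kera, 0.42 for Lipe and 0.49 for Zscan26. They were 0.97 for Txnip and 0.62 for Hspa1a, and Angptl7 stayed at 0.54. Among the lower genes they were -0.16 for Arhgap6, -0.23 for Nmnat2, -0.27 for Clic5, -0.34 for Nov, -0.39 for Hmga2, -0.41 for Nkain1 and -0.51 for Ctsk. The groups of 4 and 3 libraries did not overlap for Txnip and Hspa1a, and they overlapped for the other 18. Over all genes tested, the Hsp70 libraries lay above all normal glucose libraries for 0.482% and below them for 1.24%. The genes picked by rule were chosen by sign and p-value with most of the same libraries, so this count is a description. Angptl7, Hmga2, Hvcn1 and Arhgap6, like Acss2, Bhlhe40, Gadd45a, Nos3 and Cdh5 among the other named genes, also overlap a measured gene on the opposite strand, and reads of such genes may be shared.

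Of the 23 tested vascular growth genes 1 was higher in all 3 sets (4.35%, against 7.62% of all genes) and 7 were lower (30.4%, against 9.92%), and 9 lay above 0 and 14 below. Vegfa, the main growth factor of blood vessels, stood at 13.33, 13.36 and 13.39 in normal glucose and at 13.21, 13.17, 12.99 and 13.10 with Hsp70. The groups did not overlap, and the normal glucose libraries were nearly equal. The within-set differences were -0.15, -0.38 and -0.29 (mean -0.27, SE 0.116), a level 0.827 times that in normal glucose. High glucose alone gave 0.03, -0.07 and 0.05 against the same normal glucose libraries. The high glucose library of set 2, however, stood at 13.00, below all normal glucose libraries and below the Hsp70 library of its set. Cxcl12, a chemokine that recruits endothelial progenitors, stood at 13.54, 13.57 and 13.56 in normal glucose and at 12.43, 13.00, 13.43 and 13.35 with Hsp70. It too did not overlap, with differences of -0.54, -0.14 and -0.20 (mean -0.29, SE 0.137, and -0.17 without set 3), and its receptor Ackr3 gave 0.43, 0.14 and 0.49. The semaphorin and VEGF co-receptor Nrp2 gave -0.29, -0.34 and -0.25 (mean -0.29, SE 0.118). Angpt1, which steadies vessels through the receptor Tie2, gave 0.66, -0.32 and -0.07.

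The hypoxia response, which shares Vegfa and Slc2a1, had 8 of 27 tested genes above 0 and 19 below. In all 3 sets 2 were higher (7.41%, against 7.62% of all genes) and 6 lower (22.2%, against 9.92%). The list's median difference was -0.15, -0.03 and -0.08 in sets 3, 4 and 5. Bhlhe40, a repressor in the clock and the hypoxia response, stood at 10.53, 10.66 and 10.69 in normal glucose and at 9.90, 10.23, 10.33 and 9.94 with Hsp70. The groups did not overlap, and the differences were -0.30, -0.33 and -0.75 (mean -0.46, SE 0.178, and -0.28 without the Hsp70 library of set 5). Those of high glucose alone were -0.33, -0.90 and -0.42 against the same libraries. The 20 glycolysis genes divided evenly, with 10 above 0 and 10 below.

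Hydrogen sulfide is made from cysteine and homocysteine by the enzymes of Cth, Cbs and Mpst, and Cth encodes the cystathionine gamma-lyase that the series is about. Cth stood at 8.85, 8.11 and 8.88 in normal glucose and at 11.01, 8.74, 8.30 and 8.75 with Hsp70 in sets 2 to 5. The Hsp70 library of set 2 lay far above all others, while the high glucose library of that set stood at 8.10, and the remaining 3 lay within the range of normal glucose. Within sets Cth differed by -0.11, 0.19 and -0.13, and their mean was -0.02 (SE 0.131, 95% interval -0.32 to 0.29 by limma). With all 11 libraries and no set block it was 0.59. Cbs gave 0.86, -0.23 and 0.05 (mean 0.23, SE 0.389) and Mpst -0.53, 0.70 and 0.09 (mean 0.09, SE 0.247). Mat2a, which makes S-adenosylmethionine upstream of this pathway, gave -0.36, -0.31 and -0.52 (mean -0.40, SE 0.155), and it overlaps the opposite-strand gene Particl. Its set 2 Hsp70 library, at 11.77, lay above the normal glucose range of 11.21 to 11.58. Of the 14 tested genes of the list, 2 were higher and 3 lower in all 3 sets. The shares were 14.3% higher and 21.4% lower, against 7.62% and 9.92% of all genes.

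Targets of ATF4, the factor that raises amino acid synthesis under stress, differed between sets. Their median difference was -0.17, 0.21 and -0.47 in sets 3, 4 and 5, and the set 2 Hsp70 library lay 1.45 above the normal glucose mean. Of 30 tested members, 4 had a mean above 0 and 26 below. However, none was higher in all 3 sets and 2 were lower (6.67%, against 9.92% of all genes). Those were the stress factor gene Atf3, at -0.66, -0.30 and -0.14 (mean -0.36, SE 0.147, and -0.22 without set 3), and the secreted stress cytokine gene Gdf15, named after its values were seen, at a mean of -0.64 (limma, unadjusted p = 0.0113).

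Of the 21 immediate early genes, the first to answer growth signals, 6 lay above 0 and 15 below. None was higher and 6 were lower in all 3 sets (28.6%, against 9.92% of all genes), and the medians were -0.14, -0.29 and -0.19. Egr1 gave -0.37, -0.46 and -0.28 (mean -0.37, SE 0.122) and Klf6 -0.27, -0.30 and -0.41 (mean -0.32, SE 0.109), both being zinc finger factors. The unpaired Hsp70 library of set 2 went the other way for Egr1, at 9.84 against 9.36 to 9.68 in normal glucose. Klf6, at 11.85 there, lay within its normal glucose range. In that library the list's median difference from the normal glucose mean was 0.31. For p53 targets and apoptosis genes, 8 of 27 lay above 0 and 19 below, and 6 were lower in all 3 sets (22.2%) against none higher. The list's medians were -0.14, -0.16 and 0.04 in sets 3, 4 and 5, and the median of -0.11 over the sets was -0.00176 without the Hsp70 library of set 4. Among them the growth arrest gene Gadd45a gave -0.71, -0.06 and -0.42 (mean -0.40, and -0.24 without set 3), the cell death gene Pmaip1 -0.47, -0.46 and -0.01, and the death receptor Tnfrsf10b -0.34, -0.32 and -0.19. With Hsp70 in set 2, Tnfrsf10b stood at 10.86, above its normal glucose range of 10.11 to 10.54. Gadd45a (10.12) and Pmaip1 (10.18) lay within theirs. Mcm2, a subunit of the replication helicase, gave -0.42, -0.39 and -0.52 (mean -0.44, SE 0.114). Its set 2 Hsp70 library, at 9.42, lay above the normal glucose range of 8.95 to 9.23. The 35 cell cycle genes did not share a direction across sets, with medians of -0.44, 0.08 and 0.13, and 1 was higher and 3 lower in all 3 (2.86% and 8.57%). Rrm2, which makes deoxynucleotides, gave -0.52, -0.78 and 0.05 (mean -0.42, and -0.23 without set 4).

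**Figure D3:**
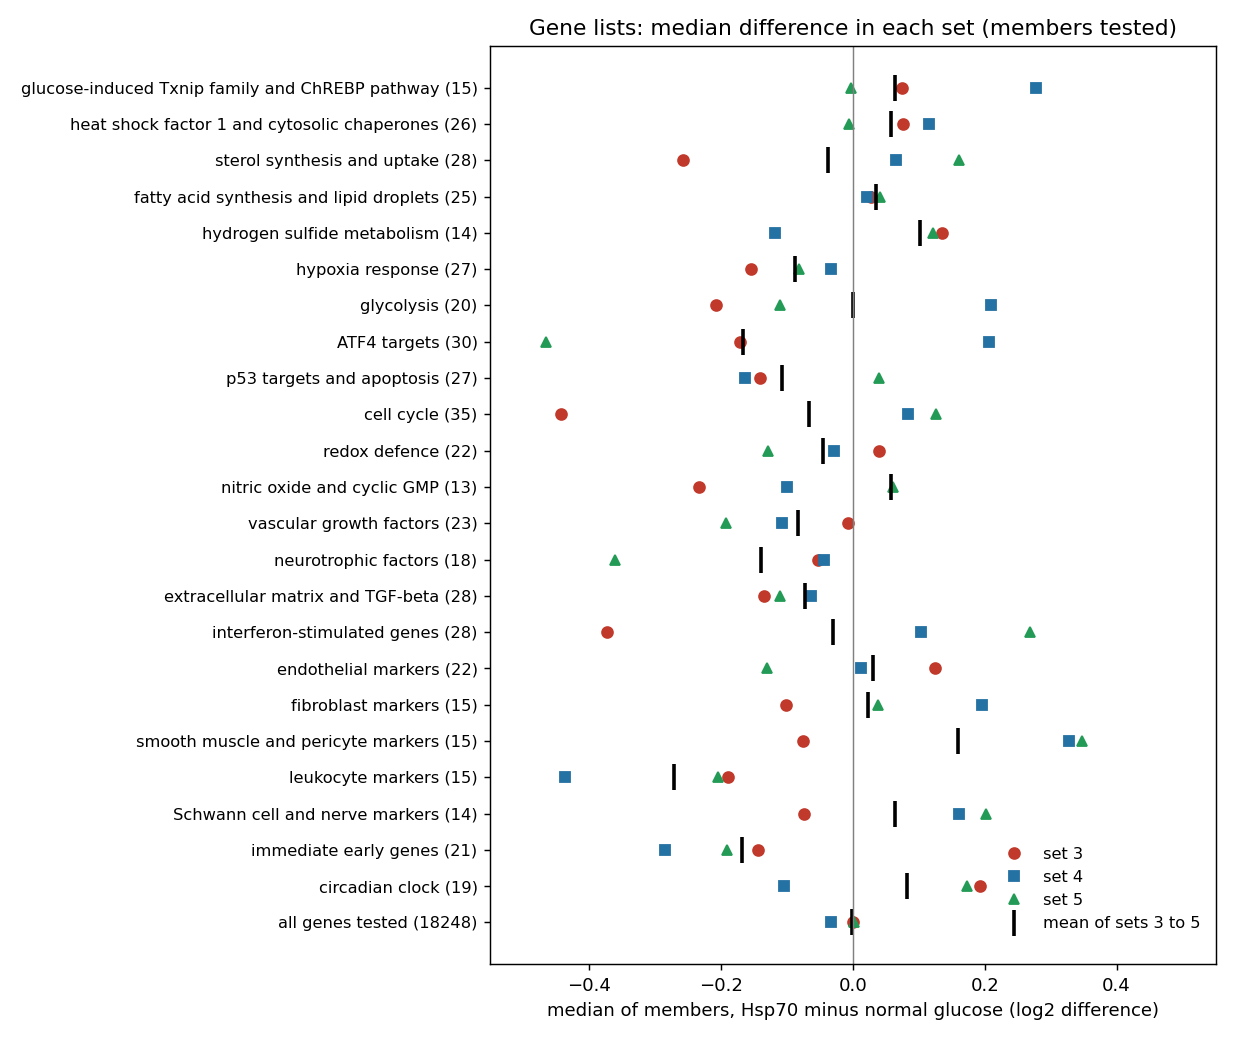
Median log2 difference, Hsp70 in high glucose minus normal glucose (horizontal axis), over the tested members of 23 gene lists and over all genes (vertical axis, number of members in brackets); symbols are sets 3, 4 and 5, and the black bar is the median of the members' mean differences. Immediate early genes lie below 0 in each set, and cell cycle, ATF4 and interferon lists change side between sets.

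Of 28 tested genes of extracellular matrix and TGF-beta signalling, 6 lay above 0 and 22 below, none was higher and 4 were lower in all 3 sets (14.3%, against 9.92% of all genes). The list's median was -0.07, with -0.13, -0.06 and -0.11 in sets 3, 4 and 5. The stromal protease Mmp11 gave -0.13, -0.46 and -0.88 (mean -0.49, SE 0.201, and -0.26 without the Hsp70 library of set 5), and it overlaps Chchd10 on the opposite strand. Interferon-stimulated genes changed side between sets, with medians of -0.37, 0.10 and 0.27 over 28 members.

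Redox, nitric oxide and nerve growth genes were mixed. Of 22 redox defence genes 2 were higher (9.09%, against 7.62% of all genes) and 3 lower (13.6%, against 9.92%) in all 3 sets. Hmox1, the heme oxygenase, gave -0.51, 0.47 and -0.52, and Cybb, the NADPH oxidase subunit of phagocytes, -0.42, -0.22 and -0.64 (mean -0.43, SE 0.139). Nos3, the endothelial nitric oxide synthase, was scarce. It stood at 5.62, 1.69 and 1.32 in normal glucose and at 2.54, 4.98, 1.59 and 0.10 with Hsp70. Its difference of -0.65 had a standard error of 0.563. Of the 13 genes of nitric oxide and cyclic GMP, 1 was higher (7.69%) and 3 lower (23.1%) in all 3 sets. Of 18 neurotrophic factors and receptors, 2 were higher (11.1%) and 5 lower (27.8%). The circadian clock list held 5 of 19 members higher (26.3%) and 2 lower (10.5%) in all 3 sets. Over all genes these shares were 7.62% and 9.92%.

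Marker lists of the cell types that such a culture could hold were compared in the same way. Of 22 endothelial markers, 12 lay above 0 and 10 below, with 3 higher and 5 lower in all 3 sets. The shares were 13.6% higher and 22.7% lower, against 7.62% and 9.92% of all genes. Pecam1 gave -0.21, -0.38 and -0.93 (mean -0.51, SE 0.308), and Cdh5, the cadherin of endothelial junctions, 0.44, -0.90 and -0.11. Of 15 fibroblast markers 9 lay above 0 and 6 below, with a median of 0.02. The smooth muscle and pericyte list had a median of 0.16, and its member Cspg4, the NG2 proteoglycan, gave -0.47, -0.54 and -0.46 (mean -0.49, SE 0.134). Of 15 tested leukocyte markers 3 lay above 0 and 12 below, with a median of -0.27 that was -0.03 without the Hsp70 library of set 4. Lyz2, the lysozyme of macrophages, gave -0.28, -0.28 and -0.86 (mean -0.48, SE 0.198, and -0.23 without the Hsp70 library of set 5), and the endotoxin co-receptor Cd14 gave 0.41, 0.46 and 0.19. The 14 Schwann cell and nerve markers had a median of 0.06. The part of cell makeup in the differences of Cybb, Vegfa and the other named genes was not tested.

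The 3 sets did not agree over the genes as a whole. Over the 9124 genes above the median level, the differences of sets 3 and 4 ran against each other (Pearson's r = -0.80), and 21.5% of the genes had the same sign in both. Sets 3 and 5 gave r = 0.22 with 56.2% of the same sign, and sets 4 and 5 r = -0.02 with 50.5%. These are correlations across genes, which are not independent replicates. The differences of sets 3 and 4 were also larger: 442 genes (4.84%) in set 3 and 671 (7.35%) in set 4 differed by more than 1 on the log2 scale, against 23 (0.252%) in set 5.

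**Figure D4:**
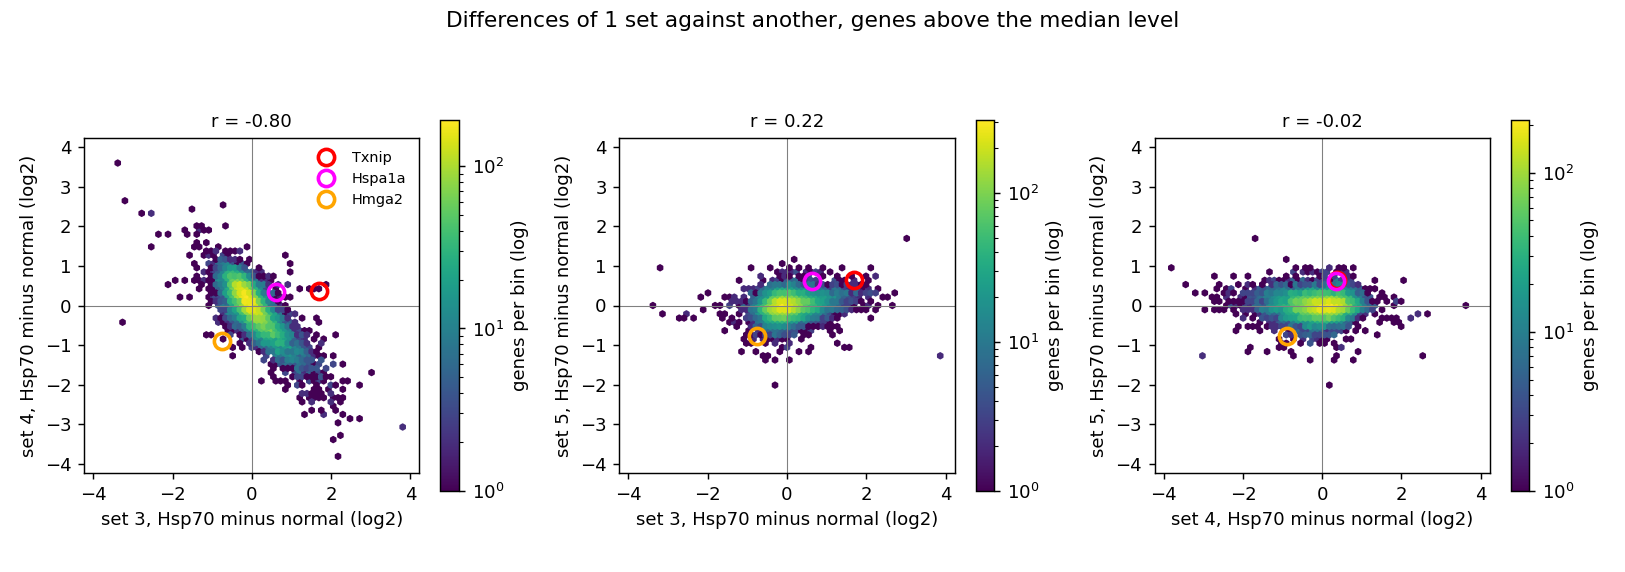
Within-set log2 differences, Hsp70 in high glucose minus normal glucose, of 1 set against another for the 9124 genes above the median level, with colour giving the number of genes per bin on a log scale. Sets 3 and 4 run along the falling diagonal, the other pairs show little relation, and the circles mark Txnip, Hspa1a and Hmga2.

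Base composition and transcript length moved with this opposition. Over 8834 of these genes with a GENCODE M21 transcript (96.8%), the difference correlated with GC content at r = -0.34 in set 3 and 0.39 in set 4, and at 0.000885 in set 5. In set 3 the fifth of genes lowest in GC had a median difference of 0.24 and the fifth highest had -0.16, whereas in set 4 these were -0.35 and 0.24. Correlations with log2 length were 0.39, -0.36 and 0.14. The departure of the normal glucose library of set 3 from its set and that of the Hsp70 library of set 4 correlated at r = 0.84 across genes. After each library was corrected for GC and length, sets 3 and 4 still gave r = -0.73, and limma called 0 of 17464 genes (lowest adjusted p = 0.228). With that correction the mean differences were 0.93 for Txnip, 0.51 for Hspa1a, 0.95 for Kera and -0.78 for Hmga2. What set these 2 libraries apart was not tested.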

How the data were processed

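RNA was measured by sequencing in 11 libraries of mouse cavernous endothelial cells. The deposited values are log2(normalized count + 1) per gene, a reading taken from the values themselves. TopHat, edgeR and mm10 are named without versions, per the submitters' processing notes. The sources used here give no normalization method, annotation or counting strand. In sets 4 and 5 a fixed group of 2753 genes holds 0 in the 6 libraries and further genes without reads hold small positive values, whereas in sets 2 and 3 such genes hold 0, so differences were taken within sets.

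Each file held 23282 genes. Repeated symbols were reduced to the row of highest mean (44 dropped), and 22197 names matched GENCODE M21. The filter, a normalized count of 1 or more in 3 libraries, left 18248 genes. Limma 3.58.1 in R 4.3.3 (trended, robust) was fitted to the 9 libraries of sets 3, 4 and 5, with group and file set as terms. The high glucose libraries entered the spread only. Benjamini-Hochberg adjustment ran over all genes tested, with a threshold of 0.05. The scripts were tested on simulated data. Figures used matplotlib 3.10.9 in Python 3.11.15.

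File names, not labels, give the sets. After group means were removed, the Hsp70 and normal glucose libraries of sets 3, 4 and 5 correlated at 0.458, 0.0219 and 0.372, and those sharing a title number at -0.24, -0.26 and -0.127. The set block follows the comparison's definition; in set 4 the correlation was close to 0.

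The rule named the 10 higher and 10 lower genes with the smallest unadjusted p among genes of 1 sign in the 3 sets, above the median mean level of 7.93 and without predicted-gene or clone names. It added 17 fixed genes (Txnip, Arrdc4, Hspa1a, Hspa1b, Hmgcs1, Cth, Cbs, Mpst, Nos3, Pecam1, Cdh5, Hmox1, Cxcl12, Angpt1, Vegfa, Bhlhe40 and Plin4) and up to 4 members of each of 23 lists above that level, by smallest p, here kept to p under 0.05. A few genes that these rules pick are not reported here. The comparison, its genes and the lists were chosen with earlier results of these data known. Alternatives were other blocks, filters, pseudocounts, scalings and weights, leaving out each library or set, and a GC and length correction chosen after seeing the data.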

Additional observations from a re-analysis of the deposited data

Results flagged for a closer look

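In 4 of 59 named genes, 1 of the 4 Hsp70 libraries lay far from the other 3 by Dixon's criterion; chance gives such a result in about 1 in 20 groups. Sod3 stood at 16.01 in set 3 against 13.73 to 13.97 in the others, Pecam1 at 8.86 in set 3 against 2.68 to 3.27, and Dcn at 17.57 in set 3 against 15.26 to 15.42. The normal glucose library of set 3 was high for the same 3 genes, at 15.53, 9.07 and 17.08. Cth stood at 11.01 in set 2 against 8.30 to 8.75, and the high glucose library of set 2 at 8.10. Set 2 holds no normal glucose library.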

How the results depend on the processing

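Over 25 alternatives limma called 0 genes in all but 1; Nov has no value for the GC and length correction. With sample weights 534 genes were called, Txnip (0.69, adjusted p = 0.0416 by limma) and Hspa1a (0.59, adjusted p = 0.0259) among them, and Hmgcs1 turned to 0.0239; the cause was not tested here or for the reversals below. The 641 genes at an unadjusted p under 0.05 became 2317 without Hsp70 replicate 3, 1591 without set 4, 1090 without normal glucose replicate 1 and 213 without set 5. Without Hsp70 replicate 4 there were 356, without normal glucose replicate 3 359, and without replicate 2 409. In the replicate block and pairing checks the fit without the block gave 257 such genes in the same 9 libraries, 178 in all 11 and 140 in 7, the block by title number 242, and the block by set in 6 libraries 312. Txnip was 0.90, 0.97, 0.97, 1.02 and 0.90 in these and 0.94 with the block by set in 11 libraries, where Cth was 0.33 and Cbs -0.00428. With 2 sets in place of 3, genes of 1 sign numbered by construction 4231 higher and 4952 lower without set 3, 4907 and 4883 without set 4, and 2385 and 3165 without set 5. Values near 0 changed side: without the block (11 or 7 libraries) Cth was 0.59, Mpst -0.0907, Cdh5 0.0575 and Hmox1 0.0801; by title number 0.74, -0.0287, 0.34 and 0.17, and Nos3 0.16. Without set 3 Cth was 0.0301, Cbs -0.0899 and Angpt1 -0.20, without set 4 Mpst was -0.22 and Cdh5 0.17, and without set 5 or with the GC and length correction Cth was 0.0408 and 0.0282. Leaving out 1 library gave ranges of -0.102 to 0.0565 for Cth, -0.151 to 0.385 for Mpst, -0.522 to 0.103 for Cdh5, -0.58 to 0.0565 for Hmox1, -0.117 to 0.485 for Cbs, -0.15 to 0.284 for Angpt1, 0.556 to 1.15 for Txnip, 0.47 to 0.599 for Hspa1a and -0.528 to -0.163 for Hmgcs1. The number of libraries limits what 0 calls can show.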
